A study of Mus musculus with 4 samples.

Results

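The Hox genes are the 39 protein-coding genes whose GENCODE symbol is Hox, a cluster letter from a to d and a number. On the autosomes and X the annotation holds 21755 protein-coding genes in all, and these 39 were taken by name, not by a measured value. The promoter mark H3K4me3, trimethylation of lysine 4 on histone H3, was measured by chromatin immunoprecipitation sequencing (ChIP-seq) in the gastrocnemius, a calf muscle of the hindlimb. The donors were female B6CASTF1/J mice, adults of 2 months and hybrids of C57BL/6J with CAST/EiJ. Tissue was studied as pool E and pool F, each combining 2 biosamples and sequenced as 2 technical libraries. Both pools shared the tissue, sex, age, strain and antibody, so there was no contrast between conditions, and animals within a pool could not be told apart. The values below come from the deposited peak list of pool E, that of pool F and a replicated list made from both.

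Hox genes encode homeodomain transcription factors that give cells their position along the body axis. In mammals they lie in 4 clusters, and within a cluster the order of the genes follows the order of their expression from head to tail, with low paralogue numbers in front and high numbers behind. Genes of the posterior Hoxa and Hoxd groups are used again in the limb bud, from the upper limb to the digits, and many adult tissues of the trunk and limbs keep a positional Hox code. H3K4me3 is laid down by Trithorax-group complexes, whereas Polycomb complexes keep Hox genes silent where they are not used.

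A gene counted as marked if any of its annotated transcription start sites (TSSs) had a peak at most 1000 bp away. Its signal value was the highest among those peaks, the authors' own measure of a peak's strength, whose reference is not stated. Its domain width was the length of the widest run of peaks lying at most 1000 bp apart. In a bulk tissue, fewer cells with the mark and less mark per cell cannot be told apart. The replicated list held 41955 peaks and the lists of pools E and F 42418 and 39544. The markers did not go against the tissue label. All 8 skeletal muscle fibre genes checked were marked in each list, with replicated values from 3.46 to 58.8. All 3 hepatocyte genes were unmarked in each list, but of all genes with CpG-poor promoters like theirs only 25.2% were marked. Being marked did not single out fibres: all satellite cell, fibroblast, tendon, endothelial and macrophage genes checked were marked in each list, beside 69.3% of all genes in the replicated list. Depth is unknown, because the lists carry no read counts.

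Nearly all Hox genes carried H3K4me3 in adult calf muscle. In the replicated list 38 of the 39 Hox genes were marked, beside 69.3% of all protein-coding genes. The same 38 genes were marked in pool E, beside 69.3% of all genes, and in pool F, beside 68.9%. A share this high was also found among all genes with CpG-rich promoters, of which 99.3% were marked, and 15 Hox genes belonged to that class. For all 38 genes a peak lay over a TSS itself, as it did for 67.0% of all genes. The gene without a peak was Hoxd12, a posterior gene of the limb. Its nearest peak lay 1817 bp from the TSS in the replicated list with a signal value of 10.6, 1811 bp away in pool E and 1830 bp away in pool F.

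The peaks at Hox genes were of moderate strength. The median signal value of the 38 marked Hox genes was 32.5 in the replicated list, 34.8 in pool E and 30.3 in pool F. Over all marked genes the medians were 45.2, 48.9 and 42.9. The Hox values ran from 3.84 at Hoxb1 to 55.3 at Hoxc10 and Hoxc5 in the replicated list, so the family spanned faint peaks and peaks above the median of all genes. The domains were wider: their median was 3732.5 bp (replicated), 4438 bp (pool E) and 3655 bp (pool F), beside 2400, 2451.5 and 2314 bp over all marked genes. Of the 38 genes, 16 (42.1%) had a domain over 5000 bp, beside 12.4% of all marked genes. These values were not independent of each other, because neighbouring Hox genes shared peaks. The 38 signal values came from 34 peaks and the 38 domain widths from 30 domains, 5 of which served 13 genes. Over the 30 distinct domains the median width was 2689.5 bp, and 8 exceeded 5000 bp.

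**Figure D1:**
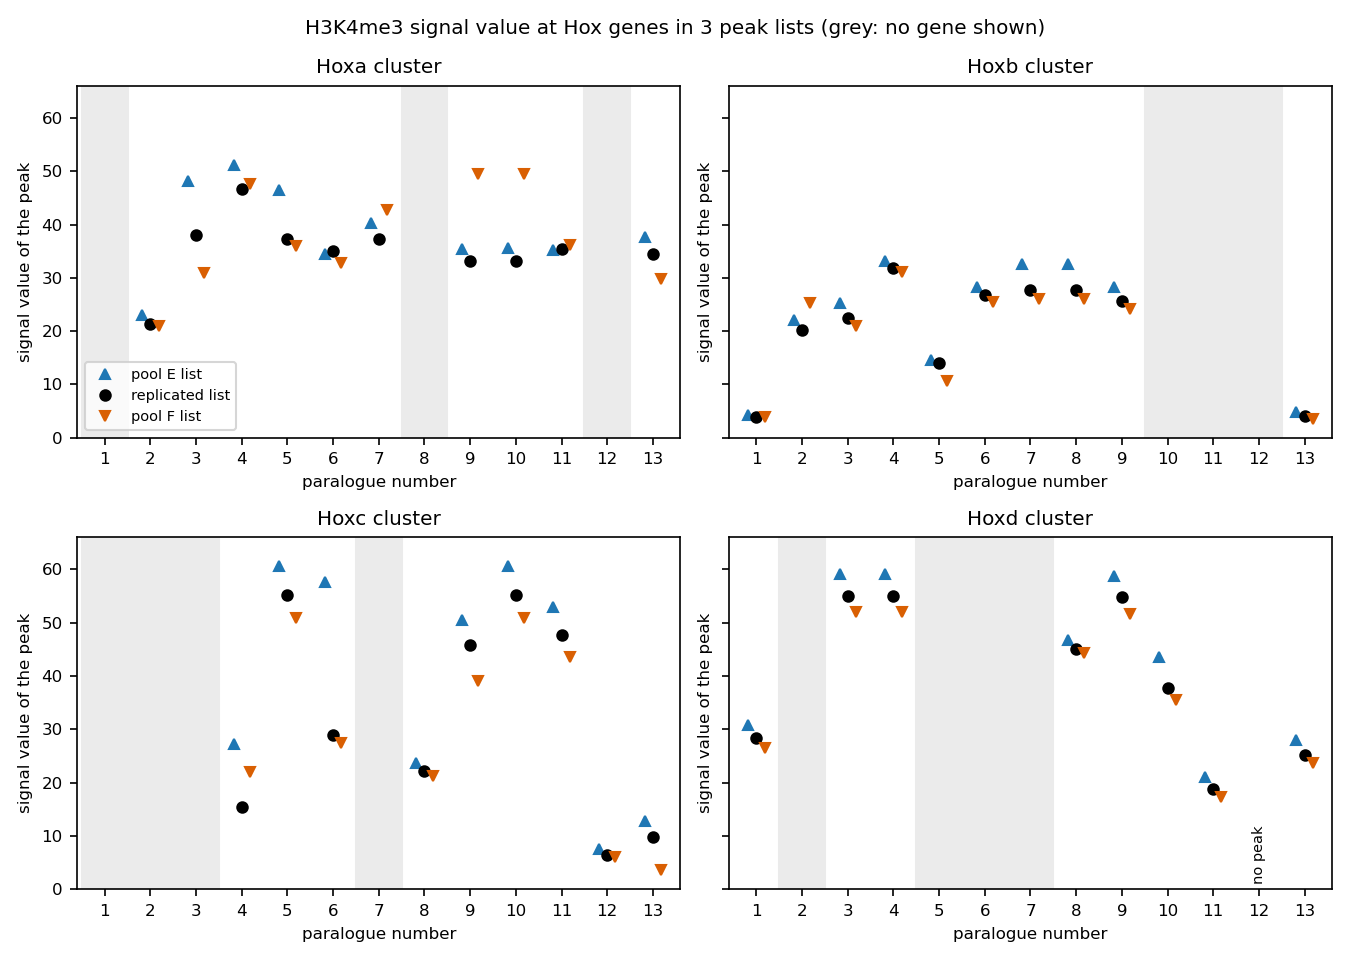
Signal value of the H3K4me3 peak at the Hox genes (vertical axis, in the authors' units) by paralogue number (horizontal axis) in 4 panels, with a point for the pool E, the replicated and the pool F list. The Hoxb points reach no higher than 33.1, Hoxb1, Hoxb13, Hoxc12 and Hoxc13 lie lowest, and Hoxd12 has no peak.

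Base composition at the TSS divided the family unevenly. Among the 15 Hox genes of the high CpG class the median signal value was 28.3, beside 51.5 over all marked genes of that class, and the median domain widths were 2877 and 2792 bp. The intermediate class held 21 Hox genes, of which 20 were marked, beside 93.9% of all genes of the class. Their median signal value was 35.2 beside 43.6 over all marked genes of the class, and their median domain width 5475 bp beside 2108 bp. The low class held Hoxb2, Hoxb13 and Hoxc4, all marked, beside 25.2% of all genes of that class, with a median signal value of 15.3 beside 18.5. Of the 16 genes with a domain over 5000 bp, 11 belonged to the intermediate class and 5 to the high class, and some of these shared a domain across the classes.

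The RefSeq promoter table for GRCm38.p6, the assembly of mm10, held 24 promoters of 22 Hox genes, each with 250 bases before and 50 after a start site. Among those it did not hold were Hoxa4, Hoxb2, Hoxb3, Hoxb5, Hoxb6, Hoxb7, Hoxb9, Hoxb13, Hoxc5, Hoxc6, Hoxc8, Hoxc9, Hoxc10, Hoxc11, Hoxc12 and Hoxc13. The dinucleotide CG, which reads the same on both strands and cannot overlap itself, was counted in each. The 24 promoters held a median of 14.5 CG (range 4 to 45), beside 7.0 (0 to 67) over 32851 promoters in the table. At least 1 CG was found in every Hox promoter and in 94.6% of all promoters. Of the 24, 18 lay wholly under a replicated peak, 3 in part and 3 not at all. The promoters printed here are those of the 2 members with the highest and the 2 with the lowest signal value in the table, and of the unmarked Hoxd12. All are on the + strand, with CG in capitals. Hoxd3 (chr2:74711743-74712042) held 20 CG and lay wholly under the peak of 55.0. Hoxd4 (chr2:74721728-74722027) shared that peak only through an upstream TSS. Its promoter printed here held 4 CG, and 9.3% of it lay under a peak of 4.12. Hoxc4 (chr15:103034145-103034444) held 9 CG and lay wholly under a peak of 15.3. Hoxb1 (chr11:96365508-96365807) held 10 CG and Hoxd12 (chr2:74674763-74675062) 13 CG, and neither overlapped a peak.
Hoxd3: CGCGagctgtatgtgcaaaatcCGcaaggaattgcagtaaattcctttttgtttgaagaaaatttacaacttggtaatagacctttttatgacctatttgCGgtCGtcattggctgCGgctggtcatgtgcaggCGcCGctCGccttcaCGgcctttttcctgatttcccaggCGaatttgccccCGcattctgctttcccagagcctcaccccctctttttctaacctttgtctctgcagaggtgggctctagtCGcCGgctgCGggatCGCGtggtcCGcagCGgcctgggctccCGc
Hoxd4: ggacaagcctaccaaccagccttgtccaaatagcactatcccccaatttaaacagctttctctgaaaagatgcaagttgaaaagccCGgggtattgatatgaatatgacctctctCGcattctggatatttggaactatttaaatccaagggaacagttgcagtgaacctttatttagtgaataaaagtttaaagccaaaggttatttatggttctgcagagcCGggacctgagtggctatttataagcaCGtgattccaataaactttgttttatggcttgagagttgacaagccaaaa
Hoxc4: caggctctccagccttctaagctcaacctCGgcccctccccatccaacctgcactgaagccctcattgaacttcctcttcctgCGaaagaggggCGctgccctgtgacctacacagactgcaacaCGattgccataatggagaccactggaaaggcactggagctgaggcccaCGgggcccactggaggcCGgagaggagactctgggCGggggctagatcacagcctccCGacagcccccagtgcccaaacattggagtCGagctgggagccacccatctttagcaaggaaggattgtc
Hoxb1: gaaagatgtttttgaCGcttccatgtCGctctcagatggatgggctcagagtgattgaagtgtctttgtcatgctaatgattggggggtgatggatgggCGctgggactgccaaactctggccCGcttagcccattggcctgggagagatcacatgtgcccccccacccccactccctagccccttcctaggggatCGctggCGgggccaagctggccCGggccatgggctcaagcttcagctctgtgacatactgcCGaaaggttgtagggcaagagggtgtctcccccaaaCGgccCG
Hoxd12: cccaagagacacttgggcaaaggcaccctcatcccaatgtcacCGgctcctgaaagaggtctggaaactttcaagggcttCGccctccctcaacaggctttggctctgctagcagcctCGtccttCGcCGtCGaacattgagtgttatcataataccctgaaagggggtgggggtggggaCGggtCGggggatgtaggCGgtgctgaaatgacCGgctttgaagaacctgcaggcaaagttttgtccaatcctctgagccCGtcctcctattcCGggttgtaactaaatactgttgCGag

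The number of CG did not order the peaks. The Hoxa13 promoter held the most, 45 CG, under a peak of 34.5, whereas that of Hoxd8 held 6 under a peak of 45.0. The Hoxa9 promoter, with 4 CG, lay wholly under a peak of 33.2, and the Hoxd4 promoter with as many was almost bare. Hoxd12, with 13 CG and no peak, equalled Hoxb8, whose promoter lay wholly under a peak of 27.8.

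The anterior genes, paralogues 1 to 4, pattern the hindbrain, the pharyngeal arches and the neck. All 12 were marked in each list. Their median signal value was 30.1 in the replicated list, 32.0 in pool E and 28.7 in pool F. Hoxb1, which sets the identity of a hindbrain segment, had the lowest values, 3.84 (replicated), 4.29 (pool E) and 3.80 (pool F). Hoxd1, of the same paralogue group, had 28.3, 30.9 and 26.5. Hoxd1 was higher than Hoxb1 in each list, and their values did not overlap. The Hoxb1 peak was 378 bp wide and lay over an internal TSS, beginning 181 bp downstream of the principal TSS.

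Hoxa2, the selector gene of the second pharyngeal arch, had a peak of 21.3 (23.1 in pool E and 20.9 in pool F). Hoxb2, also a hindbrain gene, had 20.2 (22.0 and 25.3). These paralogues did not differ by more than the spread between the pools. Their domains were 3413 bp (Hoxa2) and 3573 bp (Hoxb2) wide in the replicated list.

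Paralogue group 3 acts in the neck, the thymus and the upper vertebrae. Hoxa3 had a signal value of 38.1 at its principal TSS, which lies upstream of Hoxa4, Hoxa5 and Hoxa6, with 48.3 in pool E and 30.9 in pool F. Only a weak peak of 5.74 lay by a more proximal Hoxa3 TSS. Hoxb3 was marked at 22.4 (25.2 and 20.9), through 1 of its 4 TSSs. That TSS was not a principal one, and the nearest peak to a principal TSS was 1271 bp away. Hoxd3 carried the strongest peak of the group, 55.0 (59.2 and 52.1), at its most upstream TSS. Its other TSSs had values of 20.5, 9.35 and 19.5 in the replicated list or no peak within 1000 bp.

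Among the genes of paralogue group 4, which pattern the cervical vertebrae, Hoxa4 had 46.7 (51.1 in pool E and 47.7 in pool F) and Hoxb4, also known from blood stem cells, 31.9 (33.1 and 31.1). Hoxd4 had 55.0 only because a Hoxd4 TSS lies beside that of Hoxd3. Its principal TSSs had peaks of 15.1 (18.6 and 9.62) and 4.12 (4.72 and 3.80). Hoxc4 had 15.3 in the replicated list, below its value in both pools (27.3 and 22.0). The replicated value of Hoxc4 thus lay outside the range of the pools.

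Paralogues 5 to 8 pattern the thorax and the level of the forelimb. All 11 were marked in each list, with a median signal value of 28.9 (34.4 in pool E and 27.3 in pool F). Hoxa5, a gene of lung and shoulder development, had 37.2 (46.4 and 36.0). Hoxa6 had 35.0 (34.4 and 32.7) and Hoxa7 37.2 (40.3 and 42.8). Hoxa6 was the lowest of these 3 in each list, and the values of Hoxa5 and Hoxa7 overlapped. Hoxb5 had the lowest value of the group, 13.9 (14.5 and 10.7), in a domain of 2119 bp. Hoxb6 had peaks at both of its principal TSSs, 26.8 (28.3 and 25.5) and 20.7 (22.7 and 19.5), the latter in a domain of 5226 bp. Hoxb7 and Hoxb8 shared a peak of 27.8 (32.6 and 26.0), 6184 bp wide, which spanned both start sites. Its replicated summit lay 247 bp from the nearest Hoxb7 TSS and 4145 bp from the nearest Hoxb8 TSS.

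In the Hoxc cluster, Hoxc5 and Hoxc6 took their highest values from upstream starts. Hoxc5 had 55.3 (60.6 and 50.9) at a distant upstream TSS that lies beside Hoxc10, and 17.3 (18.6 and 16.4) at its principal TSS. Hoxc6, a thoracic gene, had 28.9 (57.7 and 27.3) at 2 upstream TSSs, and 6.09 (6.83 and 6.13) at its principal TSS. The upstream peaks were the higher ones for both genes in each list. Hoxc8, a gene of brachial motor neurons, had 22.2 (23.7 and 21.2) in a domain of 994 bp. Hoxd8, the lone Hoxd member of the group, had 45.0 (46.8 and 44.3). Hoxd8 thus lay above Hoxb8 and Hoxc8 in each list, with no overlap.

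Paralogues 9 to 11 pattern the lumbosacral trunk and the limb from hip to ankle. All 10 were marked in each list, and their median signal value of 36.6 (39.6 in pool E and 41.3 in pool F) was the highest of the 4 groups. Their median domain width was 13782 bp (replicated), 7654 bp (pool E) and 7728 bp (pool F), because a wide Hoxc domain was split in both pools. Hoxa9, a gene of trunk patterning and blood progenitors, had 33.2 (35.4 and 49.5), and Hoxa10, a gene of the lumbar spine and thigh, had 33.2 (35.6 and 49.5). Both genes had higher values in pool F than in pool E, but from differently divided peaks. The replicated value of 33.2 belonged to a shared peak, with its summit 7288 bp from the nearest Hoxa10 TSS. In pool E the Hoxa10 value came from a separate peak of 5376 bp. In pool F both genes took the value of a peak of 7992 bp. Hoxa11, a gene of the lower leg and forearm, had 35.4 (35.1 and 36.1). Hoxb9 had the lowest value at paralogue 9, 25.6 (28.2 and 24.1).

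Hoxc and Hoxd genes of this group had some of the strongest peaks of the family. Hoxc9, a gene of the thorax, had 45.9 (50.4 and 39.1). Hoxc10, a hindlimb and lumbar gene, had 55.3 (60.6 and 50.9), in a peak 10737 bp wide. Hoxc11, also a gene of the hindlimb, had 47.8 (53.0 and 43.6). The Hoxd members were graded along the cluster. Hoxd9 had 54.8 (58.9 and 51.7), Hoxd10, a gene of lumbar motor neurons and the limb, 37.8 (43.6 and 35.5), and Hoxd11, a partner of Hoxa11 in the lower leg, 18.9 (20.9 and 17.3). The order Hoxd9, Hoxd10, Hoxd11 was the same in each list, and their values did not overlap. Next in the cluster, Hoxd12 had no peak within 1000 bp of its TSS, and Hoxd13 had a peak.

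Paralogues 12 and 13 act at the end of the body axis and in the hand and foot. Of these 6 genes 5 were marked in each list. Their median signal value was 9.83 (12.8 in pool E and 6.12 in pool F), the lowest of the 4 groups, with a median domain width of 1172 bp. The 5 marked genes divided by cluster, and the unmarked one was Hoxd12, of the same cluster as Hoxd13. Hoxa13, needed for digits, had 34.5 (37.6 and 29.7), and Hoxd13, its partner in the digits, 25.2 (28.0 and 23.6). Hoxb13, known from the prostate and tail, had 4.03 (4.72 and 3.46), Hoxc12 6.45 (7.45 and 6.12), and Hoxc13, known from hair and nail, 9.83 (12.8 and 3.68). Hoxa13 and Hoxd13 thus lay above the Hoxb and Hoxc members in each list, with no overlap. The peaks of Hoxb13 (344 bp), Hoxc12 (653 bp) and Hoxd13 (1172 bp) were narrow, and that of Hoxa13 was 2406 bp wide.

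The clusters differed in how much of their sequence lay under peaks. The Hoxa cluster (chr6:52155590-52260880 of mm10, 105291 bp, 11 genes) was covered to 55.9% in the replicated list, 56.7% in pool E and 54.1% in pool F. The Hoxc cluster (chr15:102921103-103036852, 115750 bp, 9 genes) was covered to 48.0%, 47.5% and 45.4%. The Hoxd cluster (chr2:74668310-74765142, 96833 bp, 9 genes) was covered to 30.0%, 30.5% and 27.6%. The order Hoxa, Hoxc, Hoxd was the same in each list, and the clusters differed by more than the lists did. The Hoxb cluster (chr11:96194316-96368256, 173941 bp, 10 genes) had the lowest share, 19.4%, 19.8% and 17.9%. This share included the gene desert of 74009 bp between Hoxb13 and Hoxb9, of which 2.46% lay under peaks. From Hoxb1 to Hoxb9 the share was 32.7%, above the 30.0% of Hoxd. Over the genome 2.20% (replicated), 2.30% (pool E) and 2.01% (pool F) lay under peaks.

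Coverage was lower outside the clusters. In the 100 kb at lower and at higher coordinates, 3.49% and 4.51% of the sequence lay under replicated peaks at Hoxa, 1.33% and 2.05% at Hoxb, 0.788% and 9.63% at Hoxc, and 4.94% and 2.39% at Hoxd. Each flank had less than the cluster it bordered. Within the clusters, the densest stretches of 5 kb lay at Hoxa9 and Hoxc10, where coverage reached 100%, at Hoxb7 and Hoxb8, with 89.5%, and at the upstream start of Hoxd3, with 83.6%.

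**Figure D2:**
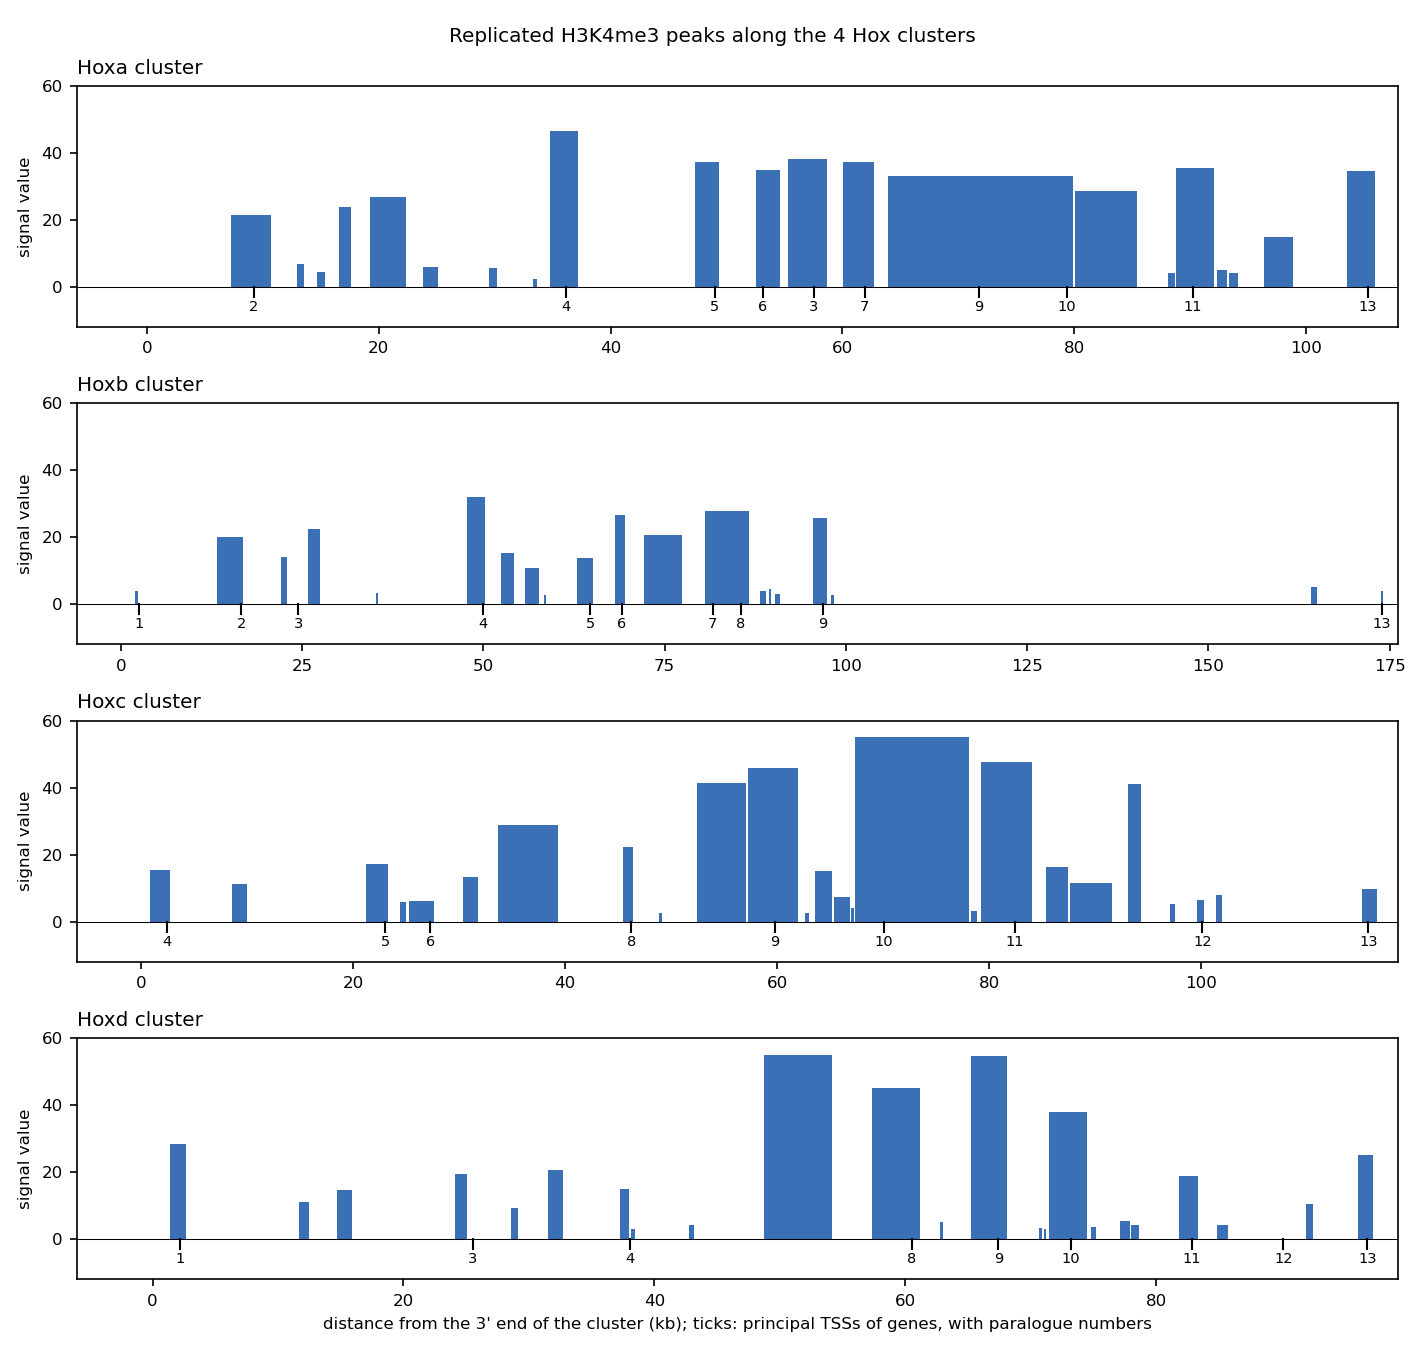
Replicated peaks along each cluster, as bars whose width is the peak's extent and whose height is its signal value, against distance from the 3′ end of the cluster in kb. Ticks with paralogue numbers show the principal TSSs of the genes (the most downstream where it has several), broad peaks lie at Hoxa9, Hoxa10 and Hoxc10, and a gap of 74009 bp with few peaks precedes Hoxb13.

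**Figure D3:**
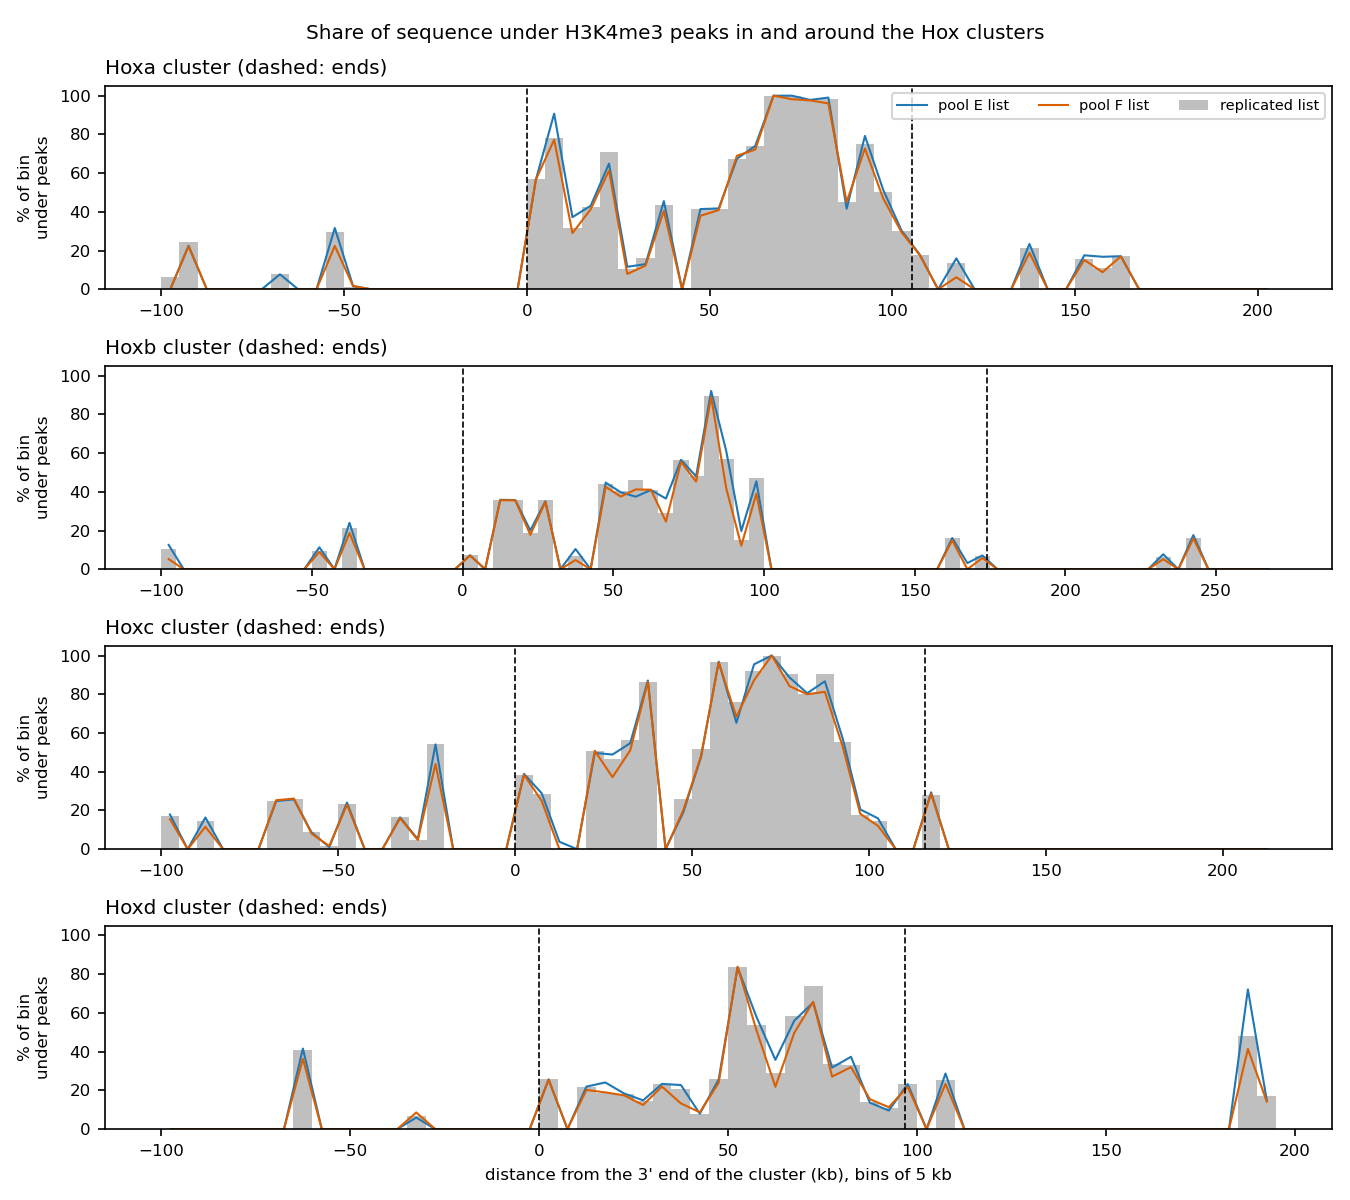
Share of each 5 kb bin under peaks (vertical axis, percent) against distance from the 3′ end of the cluster (kb), from 100 kb before to 100 kb behind each cluster. Grey bars show the replicated list and lines show pools E and F, dashed lines mark the cluster ends, and coverage rises to 100% only inside Hoxa and Hoxc.

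The widest runs of H3K4me3 lay in Hoxc and Hoxa. In Hoxc a domain of 31600 bp (chr15:102952849-102984448) joined 9 replicated peaks and held TSSs of Hoxc11, Hoxc10, Hoxc5 and Hoxc9. It ranked 2 by width among 35113 domains in the genome. Its continuity rested on a link that the pools did not share: a peak of 401 bp with a signal value of 2.53 that neither pool overlapped. In pool E the run was split into 20433 and 9422 bp, in pool F into 20506 and 9400 bp. In Hoxa a domain of 21482 bp (chr6:52219534-52241015) held TSSs of Hoxa7, Hoxa9 and Hoxa10 and ranked 18. In the pools it measured 21516 bp (E) and 21408 bp (F), so this run was whole in each list. The next widest Hox domains had between 5226 and 6184 bp and held Hoxb7 with Hoxb8, Hoxa3 with Hoxa6, Hoxa11, Hoxc6, Hoxd3 with Hoxd4, and Hoxb6. A further run of 6280 bp, around the start of the non-coding RNA Hotair in the Hoxc cluster, held no Hox TSS.

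**Figure D4:**
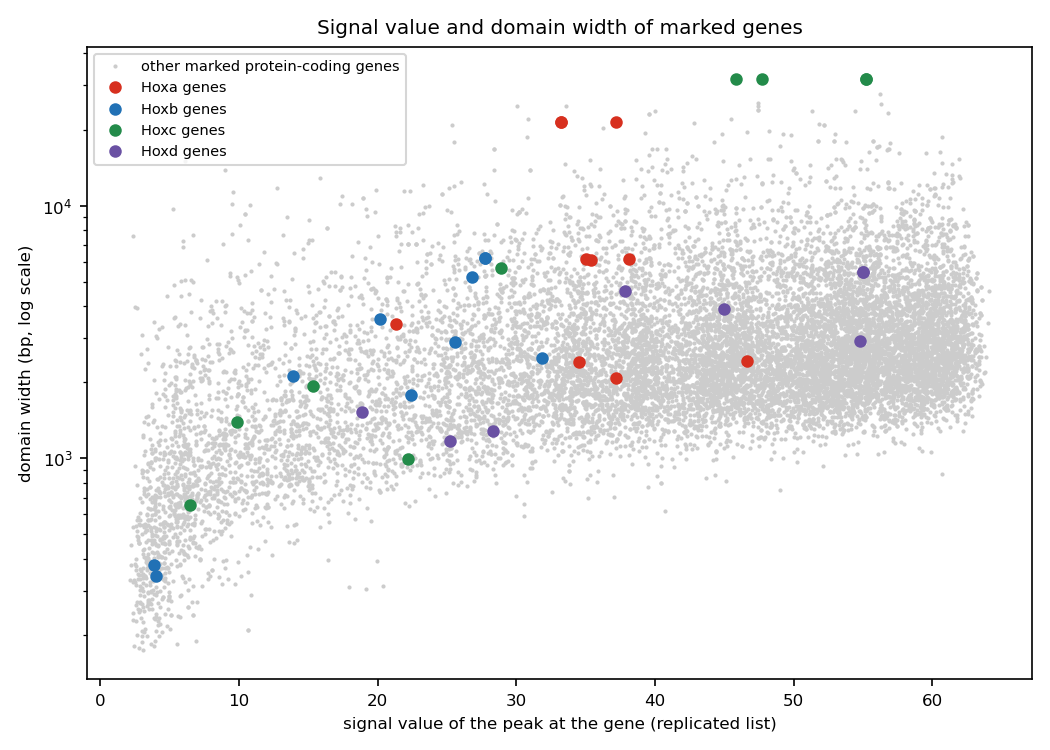
Domain width (bp, log scale) against signal value of the peak for marked protein-coding genes in the replicated list, with Hox genes coloured by cluster. Genes that share a peak fall on the same point, the Hoxc genes at 31600 bp and the Hoxa genes at 21482 bp lie at the upper edge, and Hoxb1 and Hoxb13 lie among the narrow, weak peaks.

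Peaks over 1000 bp from a Hox TSS were mostly weaker than those nearer to one. The 4 cluster spans held 90 replicated peaks, 46 of them within 1000 bp of a Hox TSS, whose signal values had a median of 25.4 and whose widths a median of 2099 bp. The other 44 had medians of 5.26 and 781.5 bp, and 31 of these lay over 1000 bp from any annotated TSS. Weak peaks prevailed there, but 2 peaks singled out after their values were seen were as strong as those near Hox TSSs. The first (chr15:102979749-102984448) lay 2717 bp from a Hoxc9 TSS with its summit in an exon of Hoxc9, with 41.3 (43.8 in pool E and 39.4 in pool F). It was the next peak after the one over that TSS (chr15:102974897-102979591, 45.9). Both were parts of the same domain of 31600 bp. The second (chr15:102942537-102943719) lay between genes, 5780 bp from the Hoxc12 TSS, with 41.1 (45.3 and 37.8). Its value exceeded that of Hoxc12 itself in each list.

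The pools shared most of the covered Hox sequence. Of the bases under peaks in the 4 clusters, 91.6% of those in pool E were also covered in pool F, and 97.8% of those in pool F were covered in pool E. Over the genome these shares were 83.9% and 96.2%. Of the 90 replicated peaks, 81 were overlapped by a peak of both pools and 3 by neither. The same counts over all 41955 replicated peaks are not given here. The ratio of the pool E to the pool F signal value had a median of 1.18 over the 38 Hox genes, beside 1.16 over 14930 genes marked in both pools. Most Hox genes thus followed the general offset between the lists. A higher value in pool F was found at Hoxa7, Hoxa9, Hoxa10, Hoxa11 and Hoxb2, 5 of the 38 (13.2%), beside 9.44% of all genes marked in both pools.

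The widest departures were at a few genes. Hoxc13 had a ratio of 3.49, with a peak of similar width in both pools (1468 and 1429 bp), whose summit lay 77 bp downstream of the TSS in pool E and 436 bp upstream of it in pool F. Hoxc6 had a ratio of 2.11, with peaks of 5729 and 4880 bp in pools E and F. The replicated Hoxc6 peak was 5678 bp wide and its value of 28.9 was near that of pool F. Hoxa3 had a ratio of 1.56, with peaks of 3373 and 3451 bp. Hoxa9 and Hoxa10 had ratios of 0.715 and 0.718. Where the replicated list had a peak of 15939 bp at these genes, pool F had a separate peak of 7992 bp with its own value of 49.5. The summit of that pool F peak lay 3025 bp upstream of the nearest Hoxa9 TSS. At the Hoxa9 TSS nearest the replicated summit, pool E had 35.4 and pool F 36.0. At the other Hoxa9 TSSs pool F had 49.5. The pool E value of Hoxa10 came from a different peak, of 5376 bp. The part of this division in the ratios of Hoxa9 and Hoxa10 was not tested.

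The clusters also hold non-coding genes, many of them antisense to Hox genes. Of 43 such genes 34 were marked, and 23 of the marked genes started over 1000 bp from any Hox TSS. These counts were not independent, because neighbouring genes shared peaks. For example, Hoxa11os and several small RNAs took their value from the Hoxa11 peak of 35.4, some of them from over 1000 bp beyond the Hoxa11 TSS. Antisense RNAs were marked in 8 of 9 cases (41.3% of all antisense genes in the annotation), miRNA genes in 6 of 7 (18.4%), small miscellaneous RNAs in 14 of 16 (17.6%) and lincRNAs in 2 of 5 (22.4%). An unclassified transcript and a pseudogene were unmarked, and processed transcripts were marked in 3 of 3 cases (58.9%). Beside these shares, 19.4% to 55.9% of each span lay under peaks, and the part of that coverage in the shares was not tested. Haglr, an RNA that starts 84 bp from Hoxd1, shared its peak of 28.3. Hotair, a long RNA studied for its links to Polycomb, had its own peak of 11.5 (13.3 in pool E and 10.5 in pool F), 6697 bp from the nearest Hox TSS. Hoxaas3 had 26.8 (28.2 and 27.2), Hoxaas2 21.3, Hoxb3os 20.2 and Hoxb5os 13.9. Each of these except Hotair and Hoxaas3 took its value from a peak that also marked a Hox gene.

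The clusters also encode miRNAs, and the miR-10 and miR-196 families are known to target Hox transcripts. Their mature forms, from RefSeq (GRCm38.p6), are printed with the seed (bases 2 to 8) in capitals, since the seed groups them across clusters. The miR-10 pair share a seed, the miR-196 pair share another, and miR-615 has its own.
miR-10a-5p: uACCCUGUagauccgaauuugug
miR-10b-5p: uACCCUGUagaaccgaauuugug
miR-196a-5p: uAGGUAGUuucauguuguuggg
miR-196b-5p: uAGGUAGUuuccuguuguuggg
miR-615-3p: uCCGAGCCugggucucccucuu

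The starts of these genes in the annotation are those of the hairpin and not of the primary transcript. Within each seed family the values found within 1000 bp of these starts differed. Mir10a, upstream of Hoxb4, lay 791 bp from the Hoxb4 peak of 31.9 (33.1 in pool E and 31.1 in pool F). Mir10b, by Hoxd4, had 3.08 in the replicated list, 18.6 in pool E and no peak within 1000 bp in pool F. A stronger replicated peak of 15.1 lay just past that limit, 1082 bp from Mir10b. The pool peaks that overlapped it had 18.6 in pool E and 9.62 in pool F. Mir196b, by Hoxa9, lay under the wide peak of 33.2 (35.4 and 49.5). Mir196a-2, by Hoxc9, had 15.2 (16.5 and 14.7), and Mir196a-1, in the desert before Hoxb9, was 4758 bp from a peak. The mature miR-196a-5p printed above is encoded by both Mir196a genes, of which the Hoxc copy alone was marked. Mir615, in Hoxc5, lay under the peak of 17.3 at the principal Hoxc5 TSS. Gm44463, an annotated miRNA gene by Hoxd9, had 5.04, with 7.49 in pool E and no peak in pool F.

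Most genes that act with the Hox proteins were also marked, like most genes of their CpG classes. The TALE homeobox cofactors of the Pbx, Meis and Pknox families, which bind DNA together with Hox proteins, were marked in 9 of 9 cases with a median signal value of 35.6, among them Pknox1 (56.5), Pbx3 (51.8) and Pbx2 (49.3). Among the upstream axial regulators 5 of 8 were marked. These included the retinoic acid receptors Rara (59.8), Rarb (35.9) and Rarg (33.9) and the trunk signal Gdf11 (23.7), whereas the 3 Cdx genes Cdx1, Cdx2 and Cdx4, caudal activators of Hox genes in the embryo, were unmarked. All 7 Trithorax genes (median 49.6) and all 15 Polycomb genes (median 55.1) were marked. Beside these counts, 69.3% of all protein-coding genes were marked. All cofactor, Trithorax and Polycomb genes belonged to the high or intermediate CpG class, of which 99.3% and 93.9% were marked. Unlike most genes of their classes, Cdx1 (high) and Cdx2 (intermediate) were unmarked. Cdx4 belonged to the low class, of which 25.2% were marked. The median of the 5 marked axial regulators was 33.9 (47.4 in pool E and 29.1 in pool F). For the Hox genes it was 32.5 (34.8 and 30.3). The medians of the cofactors, Trithorax genes and Polycomb genes lay above those of the Hox genes in the replicated list and in both pools.

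Genes outside the clusters gave the setting. Of 10 flanking genes found 9 were marked. Evx2, the homeobox gene beside Hoxd13, was unmarked, and Evx1, its counterpart beside Hoxa13, named after its value was seen, had 3.20. The non-homeobox neighbours Lnpk (59.0) and Mtx2 (51.3), on either side of the Hoxd cluster, had high peaks. Not all non-homeobox genes of this list did. Skap1 had 4.31 and Ttll6 6.12, whereas Smug1 (56.3), Skap2 (48.4), Snx10 (44.4) and Cbx5 (42.2) had higher peaks. Skap1 and Ttll6 were named after their values were seen. The hindlimb identity list was marked in 5 of 5 cases with a median of 24.5, with Pitx1 at 24.5. Tbx5, a forelimb gene, had 22.2 (25.2 and 20.4), and Tbx4, its hindlimb counterpart, added after its value was seen, 19.5 (12.9 and 18.9). Among 41 other homeobox genes 39 were marked. The counts of these 3 lists stand beside 69.3% of all protein-coding genes, 99.3% of the high and 93.9% of the intermediate CpG class. For the other homeobox genes alone, the signal values had a median of 18.6 and the domains a median width of 2038 bp. The Hox genes had 32.5 and 3732.5 bp. Lhx3 and Lhx5 were unmarked.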

How the data were processed

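H3K4me3 ChIP-seq of gastrocnemius was deposited as narrowPeak lists on mm10, which the authors called for each pool and for both together from filtered alignments, per the deposited text files. Aligner, caller and settings are not given in the sources used here. In the lists as deposited, each peak has a display score, not used here, a signal value of the authors' own, whose reference is not stated, and a −log10 q-value. The technical libraries of a pool shared an alignment, so no value per library exists. Reads of the CAST/EiJ allele were not separated in the lists, and how they aligned was not tested.

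Values were computed in Python 3.11.15 with numpy 2.4.6 and pysam 0.24.0, tested on simulated data. Genes and TSSs came from GENCODE M21, and principal TSSs are those of its APPRIS principal transcripts. The 39 Hox genes had 83 TSSs, and 16 genes had 1 TSS. CpG classes came from 1000 bp windows at TSSs: high from a CpG ratio (observed over expected) of 0.75 together with 55% GC, low with ratios under 0.48 in all windows. A cluster ran from the first to the last base of its Hox genes. With 1 tissue and 1 condition no test was run. Lists are described by counts and medians beside those of all genes, and the 2 pools are the only replicates. The members and gene lists were chosen with earlier results of these data known. The rule named the Hox genes, along with miRNAs and preset long RNAs of the clusters. For the other lists, the names could include the 4 strongest marked members and 4 unmarked ones. Results for 2 further genes, and any points or peak of theirs in the plots, are not reported here, although totals and medians include them. The alternatives tried were TSS windows of 0 and 2500 bp, principal TSSs, peaks with a −log10 q of at least 5, peaks not joined or joined up to 2500 bp, 5000 bp added to each cluster side, Hoxb without Hoxb13, the pooled list and each pool alone.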

Additional observations from a re-analysis of the deposited data

How the results depend on the processing

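Apart from the number of marked genes, 13 alternative values moved by more than the SD of the pools. The number of marked Hox genes was 38 with a TSS window of 0 bp (67.0% of all genes marked) and 39 with 2500 bp, which added Hoxd12. The share over all genes at 2500 bp is not given here. The number of marked Hox genes was 37 with principal TSSs, which removed Hoxb3 (67.4% of all genes marked). It was 36 with a −log10 q of at least 5, which removed Hoxb1 and Hoxb13. At that q-value 14856 of all 21755 genes were marked, beside 15067 without this limit. With principal TSSs the median signal value was 28.3 and the median domain width 2908 bp, beside 45.1 and 2371 bp over all marked genes. The median domain width was 3154.5 bp with peaks not joined and 6710.0 bp with peaks joined up to 2500 bp, beside 2281 and 2522 bp over all genes, and 3655 to 4438 bp with a pool left out. With 5000 bp added on each side, coverage was 51.6% for Hoxa, 44.8% for Hoxc and 27.6% for Hoxd. With a pool left out it was 17.9 to 19.8% for Hoxb, 45.4 to 47.5% for Hoxc and 27.6 to 30.5% for Hoxd. For Hoxb it was 18.0% with a −log10 q of at least 5 and 32.7% without Hoxb13, whose flanking desert the span then leaves out. At that q-value the wide Hoxc domain fell into runs of 14566 and 9552 bp, with the Hoxc11 peak of 4808 bp apart from both, and the Hoxa domain kept 21482 bp.

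No paired analysis was possible because the technical replicate numbers that the pools share have no values of their own in the lists. Depth is unknown, no interval is given, and a missing peak is not absence of the mark.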

Other observations

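Some non-coding genes in the clusters, picked after their values were seen, had peaks as strong as those of Hox genes. Hoxd3os1, antisense to Hoxd3, starts within the peak of 55.0 that marked Hoxd3 (59.2 in pool E and 52.1 in pool F). Gm28793 starts 141 bp from the Hoxd9 TSS under the peak of 54.8, and Hoxa11os starts 159 bp from that of Hoxa11 under the peak of 35.4. Gm15050, antisense within the annotated Hoxa3 gene, started 8050 bp from the nearest Hox TSS and had a peak of 23.8 (28.2 and 21.0), whose summit lay in an exon of Hoxa3. In the Hoxb desert, by contrast, the lincRNA Gm53 and the pseudogene Gm11539 were 8312 and 21289 bp from a peak.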
